A study of Mus musculus with 8 samples.

Results

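Macrophages grown from mouse bone marrow and exposed to LPS (lipopolysaccharide, the cell wall component of Gram-negative bacteria) for 24 hours were compared with macrophages left in control medium, gene by gene, on 1-colour expression arrays. Cells of all groups came from congenic B6 mice with the transgene Tg(CAG-DsRed*MST)1Nagy, a red fluorescent protein driven by the CAG promoter, and the macrophages were grown for 7 days with M-CSF, the growth factor of their lineage. There were 2 LPS arrays and 2 control arrays. The series also holds 2 arrays of macrophages given interleukin-4 (IL-4) for 24 hours and 2 of bone marrow colony cells kept 7 days on an endothelial monolayer in HSC media, 8 arrays in all, and these entered the shared estimate of the spread. Neither the LPS dose nor the age and number of the mice is given in the labels, and nothing there says whether the replicates of a group were separate cultures or animals, so p-values measure only the spread between these samples, which may be technical.

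The level of a gene is the log2 of its background-subtracted spot signal minus the 75th percentile of that array, so a level of 0 equals the signal at that percentile and a difference of 1 is 2-fold. Each gene was represented by its brightest probe over the 8 arrays. The members were the 24743 genes that lay well above background on both LPS arrays or both control arrays, of 26508 genes tested across the series and 34787 on the array, and 16187 of the members carried a gene symbol. All values after ± are standard errors of the fitted log2 change of LPS macrophages relative to control macrophages, and calls were made in limma at an adjusted p (Benjamini-Hochberg, over all 26508 genes) below 0.05. Where a gene's probe was well above background on neither array of 1 group, only a lower bound of the fold is given.

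LPS replicate 2 stood apart from the other arrays. On that array 72.2% of spots were well above background, against 65.4% on LPS replicate 1 and 64.5% and 62.4% on the control arrays, 105 spots were uneven against 0 to 5 elsewhere, and its detection limit by spike-in controls, 2.10, lay beyond the range that the scanner software accepts. Across genes, Pearson r was 0.986 between the LPS arrays, 0.995 between the control arrays and 0.940 to 0.946 between an LPS and a control array, as a description, since genes are not independent replicates. Without LPS replicate 2 the number of genes called was 13104, against 14433 with it, and no count of called members in any list described here moved by more than 4. In bulk samples, fewer cells of a type and less RNA per cell cannot be told apart.

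Macrophages sense LPS through the receptor Tlr4, to which the carrier Cd14 and the coreceptor Ly96 (MD-2) present it. Signals through the adaptor Myd88 activate the transcription factors NF-kB and AP-1 and switch on cytokine genes, while signals through Ticam1 (TRIF) activate interferon regulatory factors and lead to interferon beta, which acts back on the cells through its receptor. After a day of exposure the response also holds its own brakes, and macrophages remodel arginine and mitochondrial metabolism, a state called classical activation.

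LPS changed the level of 14433 genes, 54.4% of those tested. Of 26508 genes, 7685 (29.0%) were called higher and 6748 (25.5%) lower with LPS, and the median change of all genes was 0.08. Changes of at least 2-fold were found in 3210 genes (12.1%) that rose and 2684 (10.1%) that fell. Under the main scaling more of the larger changes were rises, with 607 genes rising and 374 falling by 8-fold or more, 150 against 67 by 32-fold or more, and 47 against 11 by 128-fold or more. The balance at 2-fold turned with the scaling, to 2670 higher and 3259 lower after quantile normalization, 2675 and 3568 after centring each array on its median, and 2374 and 3392 in the deposited value table. Both LPS arrays lay above both control arrays for 40.6% of genes and below both for 34.4%, and the groups overlapped for 25.0%. The smallest two-sided p of an exact permutation test with 2 arrays in each group is 0.333, so each call rests on a variance shared across genes and groups. The balance of the calls depended on how the arrays were scaled: rises were 53.2% of the calls here, 45.4% after quantile normalization, 43.1% after normexp background correction, 39.7% after centring each array on its median and 38.5% in the deposited value table, with a median change of all genes of -0.06, -0.15, -0.11 and -0.13 under these 4 alternatives. Counts of called members in each list below are to be read beside 29.0% of all genes called higher and 25.5% called lower. Some members of the lists are named for their known role, chosen after their values were seen.

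**Figure D1:**
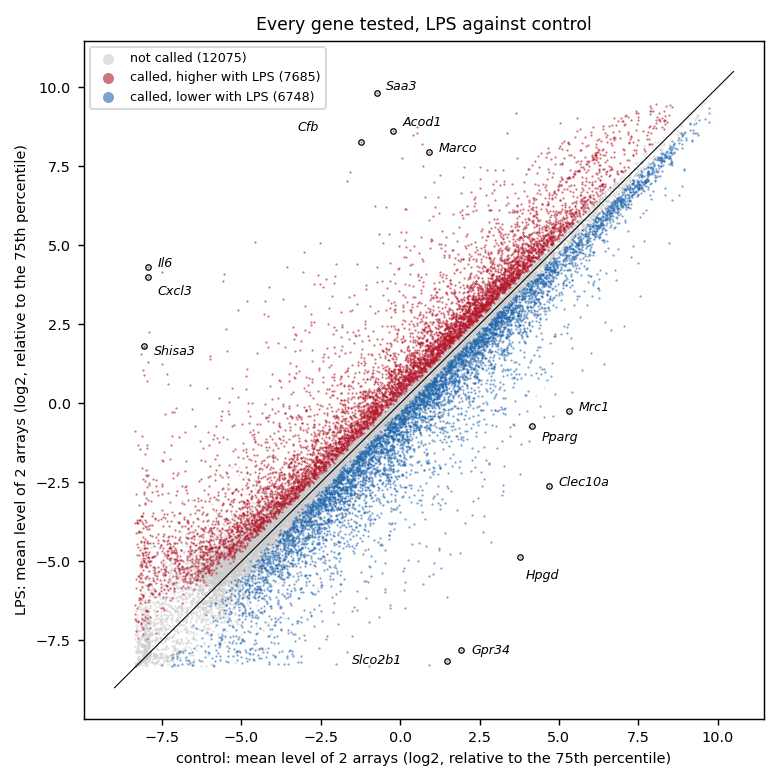
Mean level of every gene tested in control macrophages (x axis) and LPS macrophages (y axis), both in log2 units relative to the 75th percentile of the array, as means of 2 arrays. Genes called higher with LPS (7685) are red, genes called lower (6748) blue and the others grey, the line marks equal levels, and 13 named genes are circled, with Il6 and Cxcl3 at the left edge and Gpr34 and Slco2b1 at the bottom.

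The 12 genes with the largest fitted rise coded mostly for secreted mediators, acute-phase proteins and enzymes. Those given by a bound were ranked by a fitted value that used control levels not well above background, so their place is uncertain. The bound of Arg1, for example, was 7.31 in log2, below the rise of Fpr1 (8.88), which was not among the 12. Il6, which codes for the cytokine interleukin-6, had levels of 4.28 and 4.34 with LPS, against -8.09 and -7.78 in control medium, at least 1287-fold higher. The neutrophil-attracting chemokine gene Cxcl3 was at least 1028-fold higher and the interleukin-1 alpha gene Il1a at least 1164-fold higher. All 3 genes were well above background on both LPS arrays and on neither control array. Saa3, a serum amyloid A gene of the acute-phase response, had levels of 9.59 and 10.05 with LPS, against -0.60 and -0.87 in control medium, a rise of 10.55 ± 0.21 (adjusted p = 2.6e-06 in limma), and was measured on all 4 arrays. Tarm1, a receptor of myeloid cells (at least 307-fold), Shisa3 (at least 229-fold), Serpinb2, the plasminogen activator inhibitor PAI-2 (at least 224-fold), and Arg1, the arginine-cleaving enzyme arginase-1 (at least 159-fold), were also well above background on neither control array. The remaining 4 were Slfn4 of the Schlafen family (9.67 ± 0.27), U90926 (9.64 ± 0.14), the complement factor B gene Cfb (9.52 ± 0.10) and Ptgs2, the inducible cyclooxygenase (9.42 ± 0.12). Among the 12 the LPS arrays stood above the control arrays without overlap, which their choice by largest rise makes likely.

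The 12 genes with the largest fitted fall included receptors, a prostaglandin-degrading enzyme and genes of resting macrophages. Those given by a bound were ranked by a fitted value that used LPS levels not well above background, so their place in the order is uncertain. Gpr34, a receptor for lysophosphatidylserine, had levels of -7.74 and -7.90 with LPS, against 2.05 and 1.82 in control medium, at least 243-fold lower. Slco2b1, an organic anion transporter, was at least 178-fold lower, Gm5086 at least 172-fold, Rtn4rl1 at least 43.3-fold and Samd4 at least 40.1-fold. Bex1 (at least 119-fold lower) and Adam22 (at least 32.4-fold lower) are given by their brightest probe, and each had another probe that was well above background on 1 LPS array. Hpgd, the enzyme that inactivates prostaglandins, had levels of -5.00 and -4.71 with LPS, against 3.80 and 3.73 in control medium, a change of -8.62 ± 0.17 (adjusted p = 2.4e-06 in limma) with no overlap between the groups. The lectin gene Clec10a (-7.32 ± 0.09), the proton pump subunit gene Atp6v0d2 (-7.25 ± 0.09), the Ras activator gene Rasgrp3 (-6.68 ± 0.07) and the acyl-CoA thioesterase gene Acot1 (-6.48 ± 0.13) completed the list. These 4 were still well above background with LPS.

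Counting genes by presence rather than size, 820 genes were well above background on both LPS arrays and on neither control array, of which 494 had a symbol and 133 were long intergenic RNAs. In the opposite direction, 309 genes were well above background on both control arrays and on neither LPS array, 198 of them with a symbol and 20 long intergenic. These counts depended strongly on single arrays: without LPS replicate 1, whose partner had the larger share of bright spots, 3165 genes counted as present with LPS only. A separate fit took only probes well above background on all 4 arrays, where a gene did not enter through the group in which it was high. Of its 22478 genes, 7209 rose and 6586 fell.

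Genes of the LPS receptor route rose more often than they fell. Of 24 genes for recognition and adaptors, 16 rose and 4 fell, with a median change of 0.48 beside 0.08 over all genes. After centring on the median 11 rose, and 12 rose without LPS replicate 2. Tlr4 itself was lower, with levels of 1.86 and 1.99 with LPS, against 2.79 and 2.75 in control medium (-0.84 ± 0.08, adjusted p = 4.8e-04 in limma). Cd14 was higher, at 7.56 and 7.89 with LPS, against 6.12 and 6.01 in control medium (1.66 ± 0.13), and the coreceptor Ly96 rose by 0.90 ± 0.13. In the adaptors, Myd88 was at 5.31 and 5.40 with LPS, against 3.28 and 3.30 in control medium (2.06 ± 0.07), the largest rise of the list, and Ticam1 at 2.03 and 1.98 with LPS, against 1.10 and 1.36 in control medium (0.78 ± 0.11). For each of these 5 genes the LPS and control arrays did not overlap, beside an overlap in 25.0% of all genes tested. The kinases Ikbke (1.52 ± 0.17), which acts on interferon regulatory factors, Tbk1 (0.98) and Map3k8 (0.97) and the NF-kB kinase subunit gene Ikbkg (0.99) rose. Irak1 (-0.37), a kinase bound to Myd88, Ly86 (-0.37), the partner of the Tlr4 relative Cd180, and Tab1 (-0.37) fell, whereas Irak4 had 0.27 and 0.17 with LPS, against 0.17 and 0.18 in control medium, and was not called.

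Brakes on inflammatory signalling rose together. Of 28 such genes 22 (78.6%) were called higher and 4 (14.3%) lower, beside 29.0% and 25.5% of all genes, with a median change of 1.74. Il1rn, which codes for the antagonist of the interleukin-1 receptor, had levels of 4.25 and 4.07 with LPS, against -3.15 and -2.99 in control medium (7.23 ± 0.13). Socs3, the feedback inhibitor of interleukin-6 signals, was at 7.43 and 7.61 with LPS, against 0.71 and 0.71 in control medium (6.81 ± 0.08), and its relative Socs1, which restrains interferon signals, rose by 5.07 ± 0.12. In all 3 the groups were far apart on every array. The phosphatase genes Dusp2 (4.16 ± 0.09) and Dusp16 (3.19 ± 0.08) and the kinase-dead Irak3, which blocks Myd88 signals (3.72 ± 0.08), also rose, and so did Tnfaip3, the A20 enzyme that edits ubiquitin (2.44 ± 0.12), and Nfkbia, the inhibitor that holds NF-kB in the cytoplasm (7.93 and 8.08 with LPS, against 5.74 and 5.58 in control medium, 2.35 ± 0.11). Falls were found for the deubiquitinase gene Cyld (-1.70 ± 0.07), Cd200r1 (-1.60 ± 0.12), an inhibitory receptor, Sigirr (-1.24 ± 0.15) and Tnfaip8l2 (-0.93 ± 0.12). Atf3, a repressor of cytokine genes, was at 5.41 and 5.35 with LPS, against 5.50 and 5.50 in control medium, and was not called.

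Transcription factors induced by stimulation rose more often than they fell. Among 32 inducible factors, 20 rose (62.5%) and 9 fell (28.1%), beside 29.0% and 25.5% of all genes (median 0.68). Batf, an AP-1 partner, had levels of 5.78 and 5.83 with LPS, against 1.01 and 0.81 in control medium (4.90 ± 0.09), and Irf7, the regulator that amplifies type I interferon, 6.79 and 6.57 with LPS, against 2.15 and 2.31 in control medium (4.45 ± 0.11). Batf2 (2.74), Ets2 (2.62), Stat2 (2.19) and the NF-kB subunit gene Nfkb2 (1.91) rose by smaller amounts, and Hif1a, the oxygen-regulated factor that also drives glycolytic genes, rose by 1.83. Rela, the main transactivating NF-kB subunit, was at 5.62 and 5.70 with LPS, against 5.86 and 5.92 in control medium and was called slightly lower (-0.23 ± 0.07). The immediate early gene Fos fell (-0.81 ± 0.08), at 1.93 and 2.03 with LPS, against 2.85 and 2.73 in control medium. Irf4 was at -5.68 and -6.10 with LPS, against -0.56 and -0.37 in control medium (-5.42 ± 0.16) and measured on 1 of 2 LPS arrays, and Egr2 was at -1.97 and -1.96 with LPS, against 1.66 and 1.62 in control medium (-3.61 ± 0.10). Both are associated with the response to IL-4, and in the IL-4 macrophages of the series they stood at 2.60 and 2.44 and at 5.52 and 5.62.

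Of 30 lineage and resting-state factors, 6 rose and 14 fell (median -0.22). Pparg, the nuclear receptor that drives lipid uptake genes, had -0.85 and -0.56 with LPS, against 4.14 and 4.18 in control medium (-4.87 ± 0.11), and Cebpa, a factor of myeloid differentiation, -0.14 and -0.08 with LPS, against 3.02 and 3.33 in control medium (-3.28 ± 0.11). Both fell without overlap between the groups. Id3 (-3.23 ± 0.07), Klf9 (-3.16 ± 0.10), Mef2c (-1.93 ± 0.10) and Klf2 (-1.81) fell too. Nr1h3, the oxysterol receptor LXR alpha, rose by 2.69 ± 0.08, and Spic, the factor of iron-recycling macrophages, by 2.22 ± 0.17. Spi1, the master factor PU.1, was higher by 0.80 ± 0.16, whereas Maf and Mitf were not called (0.07 and 0.01). Mef2a gives a different direction by probe, with 3.06 by its brightest probe and -1.30 and -1.33 by 2 others, so no direction is drawn for it. The counts of this list take it by its brightest probe.

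**Figure D2:**
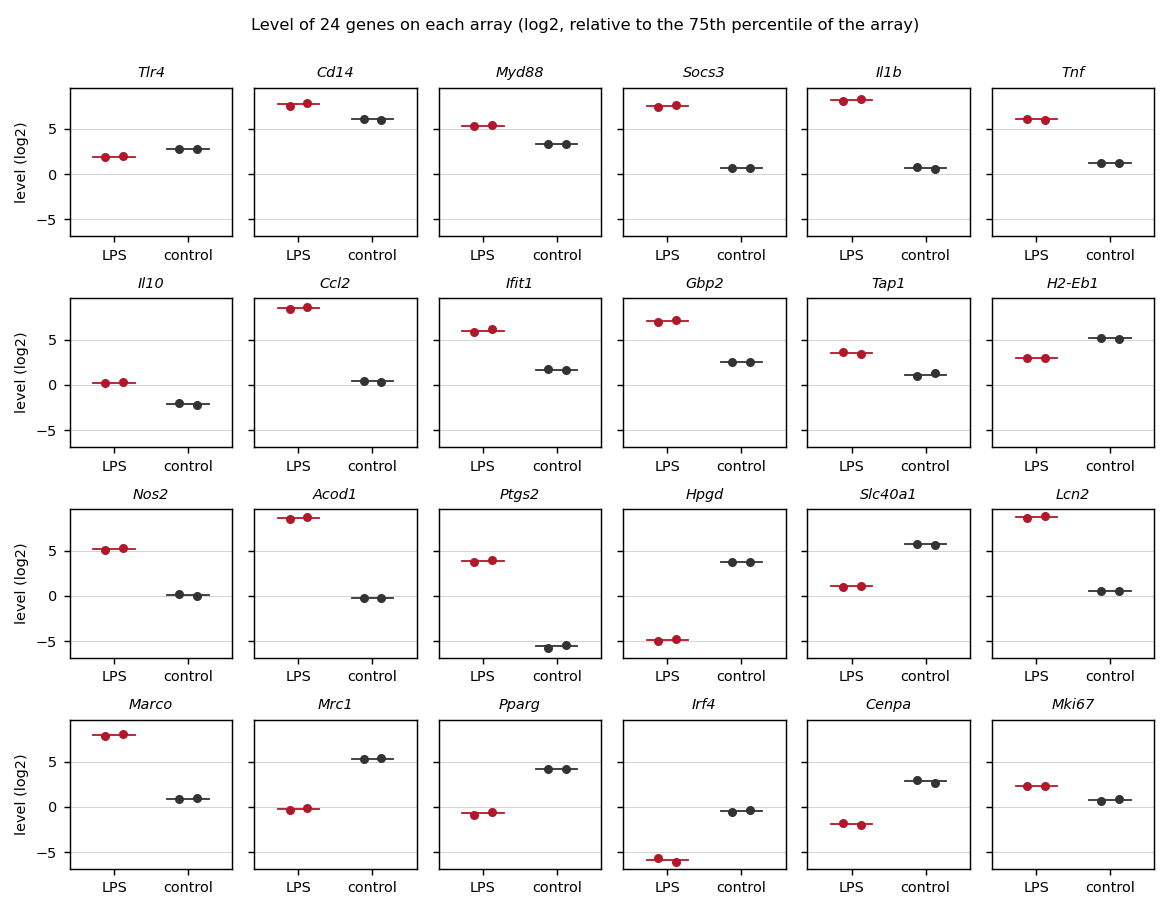
Level of 24 genes on each of the 4 arrays (y axis, log2 relative to the 75th percentile of the array), with the 2 LPS arrays in red on the left and the 2 control arrays in black on the right of each panel and a bar at the mean of each group. In all 24 panels the LPS points lie wholly above or below the control points, with Tlr4 lower by 0.84 and Ptgs2 higher by 9.42. The groups overlapped for 25.0% of all genes tested.

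Secreted cytokines were among the groups with the largest rises. Of 33 genes listed 30 were tested, and 25 rose and 2 fell, with a median change of 2.58. Il1b, which codes for interleukin-1 beta, had 8.11 and 8.34 with LPS, against 0.79 and 0.56 in control medium (7.55 ± 0.18), and Tnf, tumour necrosis factor, 6.11 and 5.96 with LPS, against 1.25 and 1.17 in control medium (4.82 ± 0.09). Il12b, the p40 subunit shared by interleukins 12 and 23, was at least 106-fold higher, and Il12a at least 26.2-fold higher. The endothelin gene Edn1 was at least 121-fold higher, and the granulocyte growth factor gene Csf3 at least 57.1-fold. These 4 were well above background on both LPS arrays and on neither control array. The anti-inflammatory Il10 had 0.22 and 0.32 with LPS, against -2.01 and -2.23 in control medium (2.39 ± 0.15), with no overlap between the groups. Ifnb1, interferon beta, was at 0.10 and -0.05 with LPS, against -4.88 and -5.90 in control medium (5.42 ± 0.32) and measured on 1 of 2 control arrays, Inhba, the activin A subunit, rose by 5.73 ± 0.26, and Il18 by 2.22 ± 0.14. Falls were found for Igf1, insulin-like growth factor 1, at 3.93 and 3.95 with LPS, against 6.29 and 6.23 in control medium (-2.32 ± 0.07), and Gdf15, a stress cytokine, at 1.04 and 1.02 with LPS, against 3.71 and 3.48 in control medium (-2.56 ± 0.09). Tgfb1 had 3.44 and 3.15 with LPS, against 3.32 and 3.60 in control medium, and Il33 was well above background on none of the 4 arrays.

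Chemokines that attract monocytes, neutrophils and T cells rose. Of 15 CC chemokine genes tested, of 17 listed, 13 rose and 2 fell, with a median of 3.34. Ccl2, the main attractant of monocytes, had 8.39 and 8.59 with LPS, against 0.48 and 0.31 in control medium (8.10 ± 0.10), its neighbour Ccl7 7.02 and 7.04 with LPS, against -1.54 and -1.78 in control medium (8.69 ± 0.09), and Ccl12 rose by 6.52 ± 0.09. Ccl5, which attracts T cells, stood at 9.01 and 9.35 with LPS, against 3.71 and 3.61 in control medium (5.52 ± 0.16). Between these 4 genes the control levels differed widely, but each was separated from its own LPS level on every array. Ccl3 (3.29) and Ccl4 (3.34) rose by amounts near the median of the list. Ccl22, commonly read as a product of IL-4 or dendritic cells, was at least 3.82-fold higher. Ccl6 (-2.84 ± 0.08) and Ccl27a (-2.53 ± 0.13) fell. Of 12 CXC chemokine genes tested, of 14 listed, 9 rose and 1 fell (median 2.61). That median was 1.32 after normexp correction, 0.98 over 14 genes with no filter and 0.53 over the 9 genes well above background on all 4 arrays. Cxcl10, an interferon-induced attractant of T cells, had 8.43 and 8.65 with LPS, against 3.36 and 3.38 in control medium (5.17 ± 0.12), Cxcl1 rose by 6.15 ± 0.16, Cxcl2 by 5.31 ± 0.15 and Cxcl9 by 5.12 ± 0.22. Small rises of Pf4 (0.39), Ppbp (0.41) and Cxcl16 (0.53) also counted, and after centring on the median 6 of the 12 rose. Cxcl11, a transcribed pseudogene in the RefSeq table, was called lower (-0.42 ± 0.11), and Cxcl12 was not called, with one LPS array below and the other near the control arrays (-8.18 and -4.53 with LPS, against -4.20 and -4.20 in control medium).

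Receptors for attractants divided into risers and fallers. Of 23 tested, 11 rose (47.8%) and 7 fell (30.4%), beside 29.0% and 25.5% of all genes. The median change was 0.42, and 0.24 without LPS replicate 2. Fpr1 and Fpr2, receptors for bacterial formyl peptides, had 7.20 and 7.42 with LPS, against -1.56 and -1.58 in control medium (8.88 ± 0.18) and 6.25 and 6.27 with LPS, against -0.73 and -0.87 in control medium (7.06 ± 0.10). Ccr7, which guides cells to lymph nodes, rose by 4.18 ± 0.10 and Ccrl2 by 1.99 ± 0.09. Cxcr4, the bone marrow homing receptor, was lower at -1.44 and -1.37 with LPS, against 3.04 and 3.05 in control medium (-4.45 ± 0.07), as were Cxcr3 (-4.09 ± 0.10), Ccr2, the receptor for Ccl2 (-2.81 ± 0.10), S1pr1 (-2.60 ± 0.14) and C5ar2 (-2.27 ± 0.10). C5ar1 and C3ar1, the complement anaphylatoxin receptors, were not called (0.23 and 0.18).

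Cytokine receptors showed no common direction: of 34, 16 rose (47.1%) and 14 fell (41.2%), beside 29.0% and 25.5% of all genes. Under quantile normalization 14 rose and 16 fell. Il1r1, the signalling receptor for interleukin-1, rose by 4.0 ± 0.18 and was measured on 1 of 2 control arrays, Il2rg, the shared gamma chain, by 1.89 ± 0.08, and Tnfrsf1b, the second tumour necrosis factor receptor, by 1.78 ± 0.12. The receptor genes Lifr (-5.34 ± 0.18), Il7r (-4.07 ± 0.07) and Il6st, the signal chain of interleukin-6 (-2.66 ± 0.11), fell, as did Tgfbr1 (-1.68 ± 0.08) and Ifngr1, the interferon gamma receptor (-1.63 ± 0.13). The M-CSF receptor gene Csf1r was lower (-0.56 ± 0.10), at 8.52 and 8.79 with LPS, against 9.19 and 9.24 in control medium.

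Sites of NF-kB and AP-1 in promoters were counted in the RefSeq promoter table of build GRCm38.p6, which holds 32841 windows of 250 bases before to 50 bases after a gene's start. The NF-kB consensus was present in 4.51% of all windows and in 34 of 444 (7.66%) windows of genes that rose by 8-fold or more, against 15 of 322 (4.66%) of genes that fell by that much. These windows covered 354 of the 607 genes that rose and 232 of the 374 that fell, and a gene can have more than 1 window. The AP-1 motif TGANTCA, which is its own reverse complement apart from the N, was in 7.81%, 14.9% and 7.76% of these windows. Over the windows of genes tested, the shares were 5.12% for NF-kB and 6.06% for AP-1. Among the CXC chemokines 4 of 9 windows held the NF-kB consensus, among the brakes 7 of 29 and among acute-phase and antimicrobial genes 1 of 19. A match is a description of letters and not a bound site. In the 200 bases before the start, Tnf, Il1b, Il12b, Saa3, Acod1 and Socs3 held no match to the NF-kB consensus. Given here are those bases for 3 of the genes that did, with the consensus in capitals, to show where these sites lie.
Il6 (chr5:30012914-30013113, forward strand; match at -44): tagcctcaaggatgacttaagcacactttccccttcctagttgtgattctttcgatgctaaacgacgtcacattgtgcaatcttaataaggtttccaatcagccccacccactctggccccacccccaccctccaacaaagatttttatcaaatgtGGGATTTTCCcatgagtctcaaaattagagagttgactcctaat
Cxcl10 (chr5:92348890-92349089, reverse strand; matches at -159 and -103): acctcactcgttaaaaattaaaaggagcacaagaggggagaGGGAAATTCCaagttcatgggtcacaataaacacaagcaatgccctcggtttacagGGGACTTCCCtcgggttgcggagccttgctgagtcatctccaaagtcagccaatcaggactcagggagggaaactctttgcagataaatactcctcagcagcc
Nfkbia (chr12:55492648-55492847, reverse strand; match at -29): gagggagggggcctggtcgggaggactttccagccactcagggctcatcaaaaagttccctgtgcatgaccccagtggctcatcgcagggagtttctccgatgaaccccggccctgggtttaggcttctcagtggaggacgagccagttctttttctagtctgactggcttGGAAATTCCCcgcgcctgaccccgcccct

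Nearly all interferon-induced genes rose. Of 33 antiviral genes tested, of 36 listed, 32 rose and 1 fell, with a median of 2.87, and these counts were the same under normexp, quantile normalization, median centring and in the deposited table. Ifit1, which binds viral RNA lacking a host cap, had 5.84 and 6.15 with LPS, against 1.72 and 1.61 in control medium (4.33 ± 0.15), and Isg15, a ubiquitin-like modifier, 8.74 and 8.98 with LPS, against 5.15 and 4.90 in control medium (3.83 ± 0.13). Oasl1 (5.47 ± 0.09), Ifi44 (5.39 ± 0.11), the RNA exonuclease gene Isg20 (5.18 ± 0.08) and the Isg15-removing enzyme gene Usp18 (4.72 ± 0.08) had the largest fitted rises of the list, while Samhd1 (0.99 ± 0.08) and Oas2 (1.04 ± 0.11) had the smallest. The rise of Trim25 (1.93) was read by a probe with a GT repeat, and its other probe gave 0.13 and was not called, so 31 of 33 genes rose without repeat probes.

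GTPases that restrict intracellular microbes and the Schlafen family rose as well. Of 17 interferon-inducible GTPase genes tested, 15 rose and none fell (median 3.17). Gbp2, a guanylate-binding protein, had 7.01 and 7.17 with LPS, against 2.50 and 2.55 in control medium (4.57 ± 0.08), Gbp4 rose by 5.76 ± 0.08, Tgtp1 by 4.51 ± 0.19 and Igtp, an immunity-related GTPase, by 3.17 ± 0.07. Gbp2b and Gbp8 were not called, at 0.77 and 0.23. All 7 Schlafen genes rose, by 0.33 for Slfn5 up to 9.67 for Slfn4, which had 5.23 and 4.96 with LPS, against -4.19 and -4.97 in control medium. Slfn1 rose by 7.85 ± 0.54 and Slfn3 by 5.64 ± 0.20, and probes for close paralogs in this family can bind RNA of more than 1 gene.

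The interferon-stimulated response element core GAAANNGAA, on either strand, was in 8.56% of all 32841 windows and 7.52% of windows of genes tested. Genes up by 8-fold or more held it in 60 of the same 444 windows (13.5%), and genes down by that much in 18 of the same 322 (5.59%), so genes without a window are not covered. It was in 10 of 12 windows (83.3%) of the GTPase genes, 14 of 29 (48.3%) of the antiviral genes and 4 of 8 of the Schlafen genes. Oasl1 of the antiviral list held no match in the 200 bases before its start. In the same stretch of 3 genes that did hold a match, given here, the matches in capitals may overlap each other.
Ifit1 (chr19:34640689-34640888, forward strand; matches at -109, -103 and -84): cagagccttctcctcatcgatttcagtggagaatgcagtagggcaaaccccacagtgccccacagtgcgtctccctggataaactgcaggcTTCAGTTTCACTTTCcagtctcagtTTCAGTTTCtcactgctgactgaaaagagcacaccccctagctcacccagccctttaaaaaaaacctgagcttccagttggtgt
Isg15 (chr4:156200819-156201018, reverse strand; matches at -78, -72 and -66): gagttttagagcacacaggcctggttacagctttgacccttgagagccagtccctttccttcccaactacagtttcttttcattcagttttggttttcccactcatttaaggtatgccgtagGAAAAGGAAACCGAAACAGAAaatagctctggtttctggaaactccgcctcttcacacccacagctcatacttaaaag
Gbp2 (chr3:142620463-142620662, forward strand; match at -58): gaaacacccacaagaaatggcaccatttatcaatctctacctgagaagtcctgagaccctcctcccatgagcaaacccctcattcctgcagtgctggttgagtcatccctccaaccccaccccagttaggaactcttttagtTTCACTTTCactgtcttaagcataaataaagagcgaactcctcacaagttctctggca

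Antigen presentation genes rose in the MHC class I route and more often fell among class II and costimulation. In the class I route, 19 of 20 genes rose and none fell (median 1.52). Tap1, the peptide transporter, had 3.66 and 3.38 with LPS, against 1.00 and 1.27 in control medium (2.38 ± 0.15), and the immunoproteasome subunit genes Psmb8 (2.47 ± 0.08) and Psmb9 (1.74 ± 0.08), the proteasome activator gene Psme1 (1.86 ± 0.09) and Nlrc5, the activator of class I genes (1.88 ± 0.08), rose as well. The heavy chain genes H2-K1 (0.83) and H2-D1 (0.34) and B2m (0.48) rose by smaller fitted amounts. Of 23 genes of class II and costimulation, 7 rose (30.4%) and 11 fell (47.8%), beside 29.0% and 25.5% of all genes (median -0.32). The class II genes H2-Eb1 (2.95 and 3.0 with LPS, against 5.24 and 5.06 in control medium, -2.17 ± 0.08) and H2-Aa (-1.80 ± 0.11) fell, and H2-Ab1 was called slightly lower (-0.19 ± 0.06). Cd40, which T cells engage, had 4.04 and 4.03 with LPS, against 0.60 and 0.51 in control medium (3.48 ± 0.07), and Cd274, the inhibitory ligand PD-L1, 6.02 and 6.14 with LPS, against 2.39 and 2.20 in control medium (3.78 ± 0.10), whereas the costimulatory Cd80 (-1.69 ± 0.13), Cd86 (-0.83 ± 0.09) and Cd83 (-3.65 ± 0.08) fell.

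Among genes of nitric oxide, arginine and polyamines, 11 of 20 tested rose and 6 fell (median 0.44), and after centring on the median 9 rose and 6 fell. Nos2, the inducible nitric oxide synthase, had 5.09 and 5.24 with LPS, against 0.24 and 0.04 in control medium (5.03 ± 0.10), Ass1, which rebuilds arginine from citrulline, 5.31 and 5.56 with LPS, against 0.15 and 0.20 in control medium (5.26 ± 0.10), and the arginine transporter gene Slc7a2 2.84 and 3.03 with LPS, against -5.25 and -4.95 in control medium (8.04 ± 0.12). Gch1, the first enzyme of the cofactor tetrahydrobiopterin, rose by 2.92 ± 0.09. Arg1, the enzyme that competes for arginine, also rose, to 1.31 and 1.28 with LPS, and was higher with IL-4 (2.73 and 2.83, LPS minus IL-4 -1.49 ± 0.07, adjusted p = 3.5e-05 in limma). Ddah2 (-2.54 ± 0.14) and Sat1, a polyamine acetylase (-2.27 ± 0.14), fell, while Odc1, the first enzyme of polyamine synthesis, was at 1.53 and 1.51 with LPS, against 1.53 and 1.44 in control medium, and was not called.

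Acod1, which makes the antimicrobial metabolite itaconate, had 8.50 and 8.72 with LPS, against -0.25 and -0.18 in control medium (8.82 ± 0.11, adjusted p = 1.2e-06 in limma). In the list of itaconate and citric acid cycle genes, 15 of 27 rose (55.6%) and 7 fell (25.9%), with a median of 0.28. Of all genes 29.0% rose and 25.5% fell. This list counts Acod1 itself and linked enzymes such as Acly, Me1 and Pcx. After centring on the median 6 rose and 7 fell. Idh1 (-1.80 ± 0.10), Idh2 (-0.95 ± 0.07), Fh1 (-0.79 ± 0.10) and Mdh1 (-0.78 ± 0.08) were lower, and Me1 (2.19 ± 0.10), Pcx (1.35 ± 0.07) and Idh3a (1.04 ± 0.09) higher. For the respiratory chain 19 of 32 subunit genes rose and 1 fell (median 0.38), but 12 rose and 6 fell under quantile normalization and 8 rose and 2 fell after centring on the median, so the count of that list depended on scaling. Cycs, cytochrome c, showed the largest rise, at 6.27 and 6.32 with LPS, against 3.91 and 3.69 in control medium (2.49 ± 0.09), followed by Cyc1 (1.25 ± 0.07) and Ndufs4 (1.15 ± 0.12).

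Prostaglandin and leukotriene genes moved both ways. Of 23 genes tested, 11 rose (47.8%) and 8 fell (34.8%), beside 29.0% and 25.5% of all genes. Ptgs2 had 3.76 and 3.95 with LPS, against -5.71 and -5.43 in control medium (9.42 ± 0.12), while its constitutive relative Ptgs1 was at -1.30 and -1.10 with LPS, against 3.23 and 3.17 in control medium (-4.40 ± 0.09). Ptges, which makes prostaglandin E2 (1.84 ± 0.10), the phospholipase gene Pla2g4a (2.36 ± 0.09) and the transporter genes Slco2a1 (3.47 ± 0.21) and Abcc4 (1.90 ± 0.09) rose. Hpgd, described above, fell, and so did the leukotriene genes Alox5 (-2.70 ± 0.10) and Ltc4s (-1.41 ± 0.12) and Hpgds, which makes prostaglandin D2 (-1.59 ± 0.07). Ptger3, a receptor for prostaglandin E2, was at least 13-fold lower by its brightest probe, while another of its probes was well above background on both LPS arrays. Tbxas1 was not called (-0.07).

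Iron and heme genes moved both ways. Of 24 tested, 12 rose and 8 fell. Lcn2, which binds bacterial siderophores, had 8.64 and 8.82 with LPS, against 0.56 and 0.49 in control medium (8.20 ± 0.11), Hp, the haemoglobin scavenger haptoglobin, 7.72 and 7.82 with LPS, against -0.03 and 0.13 in control medium (7.72 ± 0.10), and Cp, the ferroxidase ceruloplasmin, 6.19 and 6.23 with LPS, against -0.59 and -0.30 in control medium (6.66 ± 0.12). The iron exporter gene Slc40a1 (ferroportin) was lower at 1.02 and 1.09 with LPS, against 5.78 and 5.67 in control medium (-4.67 ± 0.22), as were the transferrin gene Trf (-3.05 ± 0.07) and Ncoa4, which delivers ferritin to lysosomes (-2.24 ± 0.11). Hmox1, the heme-degrading enzyme, rose by 2.10 ± 0.13, and the ferritin genes Fth1 and Ftl1 were not called (-0.09 and -0.29). In oxidant production and defence 14 of 29 genes rose (48.3%) and 5 fell (17.2%). Sod2, the mitochondrial superoxide dismutase, had 8.89 and 9.18 with LPS, against 5.63 and 5.49 in control medium (3.48 ± 0.12), Sod3, the extracellular superoxide dismutase, was at least 4.71-fold higher, Slc7a11, the cystine transporter, rose by 4.03 ± 0.20, and the oxidase subunit gene Cybb by 1.80 ± 0.10. Cat, catalase, fell (-2.37 ± 0.10) by a probe with an AC repeat, and its change was -1.78 by another probe.

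Genes for the uptake of dead cells and debris fell, with exceptions. Of 28 tested, of 30 listed, 20 fell and 4 rose (median -0.91). Mrc1, the mannose receptor, had -0.37 and -0.12 with LPS, against 5.27 and 5.35 in control medium (-5.55 ± 0.10), the bridging factor gene Gas6 3.34 and 3.46 with LPS, against 7.49 and 7.59 in control medium (-4.14 ± 0.08), Cd5l 1.5 and 1.70 with LPS, against 6.05 and 5.97 in control medium (-4.41 ± 0.11) and Trem2 5.05 and 5.07 with LPS, against 8.50 and 8.41 in control medium (-3.40 ± 0.07). The engulfment receptor gene Mertk (-1.59 ± 0.10), the bridging factor gene Mfge8 (-1.97 ± 0.08), Cd36 (-1.93 ± 0.16) and the complement gene C1qb (-0.88 ± 0.07) fell as well. Marco, a scavenger receptor for bacteria, moved the other way at 7.85 and 8.03 with LPS, against 0.90 and 0.94 in control medium (7.02 ± 0.08), as did Msr1 (3.23 ± 0.09) and Olr1 (at least 11.9-fold higher). The LPS arrays lay below both control arrays in Mrc1, Gas6, Cd5l and Trem2, and above both in Marco and Msr1.

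Lipid handling also fell in number: of 29 genes, 19 fell and 7 rose (median -0.79). Cyp27a1, a sterol hydroxylase, had -4.23 and -4.94 with LPS, against 1.21 and 1.26 in control medium (-5.82 ± 0.23), Fabp4, a fatty acid carrier, 0.79 and 0.94 with LPS, against 4.92 and 4.61 in control medium (-3.91 ± 0.13), and the lysosomal lipase gene Lipa fell (-2.66 ± 0.15). The cholesterol exporter gene Abcg1 (-1.29 ± 0.08), its relative Abca1 (-0.34 ± 0.09) and Apoe, apolipoprotein E (-0.84 ± 0.11), fell. Ch25h, which makes the antiviral 25-hydroxycholesterol, rose to 3.28 and 3.35 with LPS, against -3.46 and -3.93 in control medium (7.01 ± 0.16), and Acsl1 rose by 3.75 ± 0.09.

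Among Fc receptors, lectins and paired receptors 16 of 30 rose (53.3%) and 10 fell (33.3%), beside 29.0% and 25.5% of all genes. Clec4e (Mincle), a sensor of mycobacterial cord factor, had 7.42 and 7.53 with LPS, against 2.48 and 2.58 in control medium (4.95 ± 0.08), and Pilra 6.44 and 6.60 with LPS, against 0.82 and 0.72 in control medium (5.75 ± 0.13). Fcgr1 (2.33 ± 0.07), Fcgr2b (2.57 ± 0.14), Fcgr4 (2.65 ± 0.12) and Trem3 (7.10 ± 0.31) rose. The beta-glucan receptor gene Clec7a (Dectin-1) was lower at 1.26 and 1.23 with LPS, against 6.52 and 6.34 in control medium (-5.19 ± 0.08), and Clec10a fell as given above. Trem1, an amplifying receptor, was called lower (-1.41 ± 0.10) by a probe with a GTT repeat, with no other probe kept to set beside it.

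Purinergic and orphan G protein-coupled receptors had no common direction, 12 rising (36.4%) and 14 falling (42.4%) of 33, beside 29.0% and 25.5% of all genes. Adora2a had the largest fitted rise (6.11 ± 0.46), by a probe with a GTTT repeat and no other probe kept. Adora2b, an adenosine receptor, had 2.88 and 2.96 with LPS, against -1.5 and -1.68 in control medium (4.51 ± 0.09) and Gpr84, a medium-chain fatty acid receptor, 7.12 and 7.30 with LPS, against 1.22 and 1.28 in control medium (5.96 ± 0.09). Gpr18 (5.10 ± 0.11) and Hcar2 (4.05 ± 0.23) also rose. Besides Gpr34, the ADP receptor gene P2ry1 (-5.33 ± 0.21), the nucleotide-degrading Entpd1 (CD39, -4.38 ± 0.08), Gpr183, the oxysterol-guided receptor (-2.94 ± 0.23), and P2rx7, the ATP-gated channel (-1.79 ± 0.08), fell.

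Inflammasome and cell death genes rose more often than they fell, 21 against 4 of 32 tested (median 1.15). Mlkl, the effector of necroptosis, had 3.95 and 4.22 with LPS, against 0.82 and 0.80 in control medium (3.28 ± 0.11), the inhibitor gene Cflar rose by 2.83 ± 0.17, Nod2, a sensor of muramyl dipeptide, by 2.58 ± 0.09, Bcl2a1d by 2.47 ± 0.11 and Casp4 (caspase-11), the sensor of cytosolic LPS, by 2.00 ± 0.07. Nlrp3, the inflammasome sensor, rose by 1.34 ± 0.13 and Ripk3 by 1.99 ± 0.07. Nlrp1b (-1.79 ± 0.21), Pmaip1 (-1.79 ± 0.08), Mcl1 (-0.38 ± 0.09) and Xiap (-0.37 ± 0.10) fell.

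In adhesion, matrix and coagulation 22 of 40 genes rose and 9 fell. The membrane collagenase gene Mmp14 had 4.18 and 3.97 with LPS, against -2.75 and -2.44 in control medium (6.67 ± 0.16) and the collagenase gene Mmp13 5.19 and 5.52 with LPS, against -0.57 and -0.76 in control medium (6.02 ± 0.14). Timp1 rose by 5.30 ± 0.11 and the integrin gene Itga5 by 3.34 ± 0.18, and Mmp25 was at least 34.5-fold higher. Timp2 was lower, at 2.18 and 2.43 with LPS, against 6.46 and 6.85 in control medium (-4.35 ± 0.16), as were F13a1, coagulation factor XIII (-3.58 ± 0.07), and Itga6 (-2.78 ± 0.08). Acute-phase and antimicrobial genes rose: of 23 tested 17 were higher and 4 lower. Beside Saa3, Saa1 had 8.37 and 8.72 with LPS, against 0.58 and 0.51 in control medium (8.00 ± 0.14), Saa2 was at least 134-fold higher, Slpi, a protease inhibitor, rose by 6.01 ± 0.08 and C3 by 2.99 ± 0.09. S100a8 rose by 0.52 ± 0.12 and S100a9, its partner, fell (-0.67 ± 0.13).

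Genes of mitosis fell more often than they rose. Of 32 tested, 21 were lower and 6 higher (median -0.71, and -1.08 without LPS replicate 2). Cenpa, the centromeric histone, had -1.80 and -2.0 with LPS, against 2.96 and 2.67 in control medium (-4.71 ± 0.12), Kif23 -3.92 and -3.69 with LPS, against -0.32 and -0.26 in control medium (-3.52 ± 0.09), and Anln (-2.54 ± 0.08), Ccna2 (-2.61 ± 0.17), Ccnb2 (-1.95 ± 0.10) and Plk1, the polo-like kinase (-1.83 ± 0.11), fell. For Cenpa and Kif23 the groups did not overlap. Mki67, the proliferation antigen Ki-67, rose to 2.29 and 2.30 with LPS, against 0.66 and 0.87 in control medium (1.53 ± 0.09), Tpx2 rose by 1.62 ± 0.09, and Top2a was not called (0.00). Of 33 DNA replication genes 14 fell (42.4%) and 8 rose (24.2%), beside 25.5% and 29.0% of all genes. Their median was -0.12, and -0.21 without LPS replicate 2. After centring on the median 2 rose and 14 fell, so the rises of that list depended on scaling. Rrm2, a ribonucleotide reductase subunit, was lower (-2.68 ± 0.12) and Tyms, thymidylate synthase, higher by 1.98 ± 0.09.

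**Figure D3:**
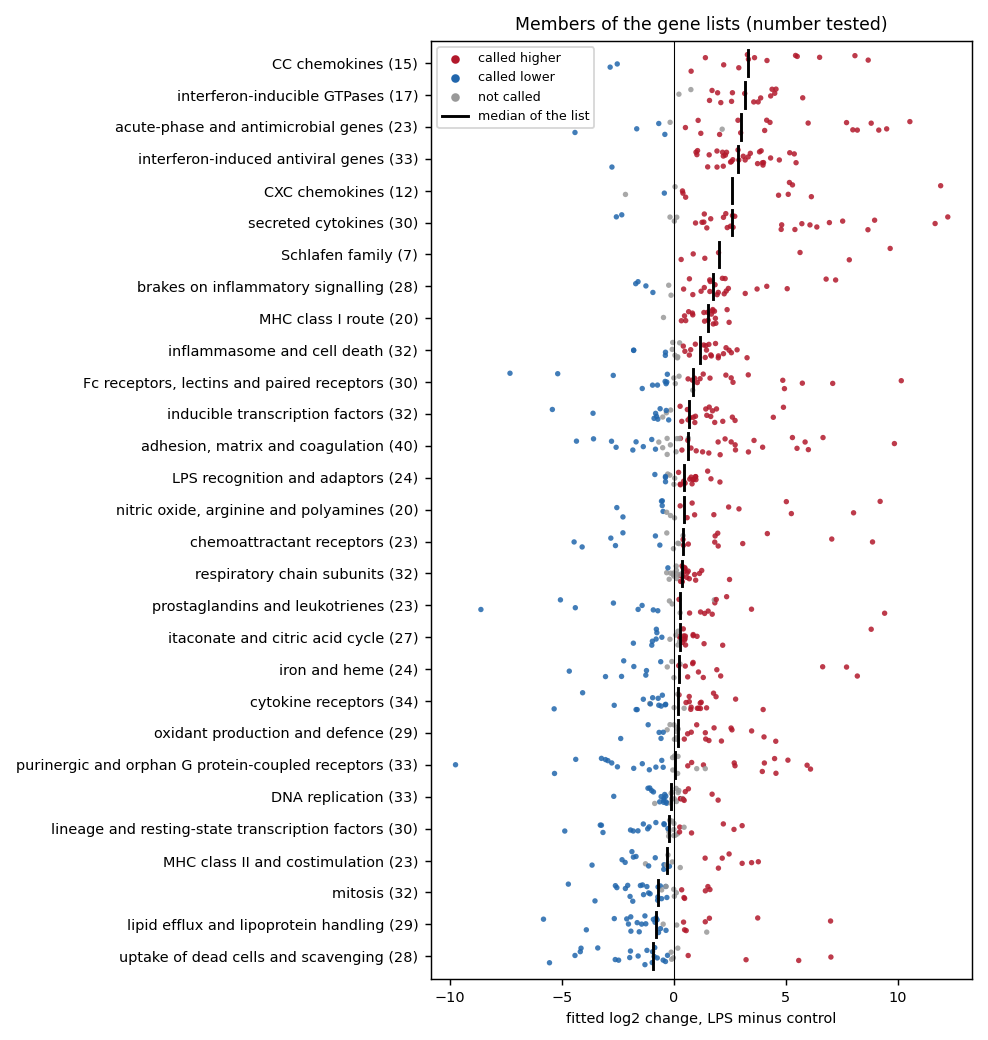
Fitted log2 change of LPS relative to control macrophages (x axis) for the tested members of 29 gene lists (rows, with the number tested), ordered by median. Each point is a gene, red where called higher, blue where called lower and grey where not called, and the black bar is the median of the list, from 3.34 for CC chemokines to -0.91 for the uptake genes.

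Cell type markers were followed because bone marrow cultures can hold other cells. Of 12 macrophage markers 6 rose and 5 fell. Csf1r (-0.56), Lyz2 (-0.40), Cd68 (-0.91) and Mpeg1 (-0.66) were called lower but stayed well above background on all 4 arrays, while Marco, Fcgr1 and Cd14 were among those that rose. The summed linear level of the 12 was 2374 and 2741 with LPS, against 2597 and 2611 in control medium. Neutrophil genes summed to 19.8 and 20.2 with LPS, against 23.8 and 21.2 in control medium, with 3 of 11 higher and 6 lower, of which Ly6g rose by 3.66 ± 0.18 and Mpo, the granule peroxidase, fell (-2.89 ± 0.10). Stromal markers summed to 1.46 and 1.66 with LPS, against 0.53 and 0.65 in control medium, with 3 of 7 higher and 2 lower. The proteoglycan gene Dcn was at -0.39 and -0.26 with LPS, against -7.40 and -7.42 in control medium (at least 51.6-fold higher) and Pdgfrb rose by 3.72 ± 0.10, while Col1a1 (-0.98 ± 0.21) and Col1a2 (-0.93 ± 0.14) fell and Col3a1 was not called. Upk3b, a mesothelial marker, was at least 9.35-fold higher (levels of -2.74 and -2.84 with LPS, against -8.10 and -8.02 in control medium), while the other 5 tested genes of the epithelial and mesothelial list were not called. The median change of that list depended on single LPS arrays, at 0.79 with both, 1.87 without LPS replicate 1 and -0.14 without LPS replicate 2. Endothelial markers summed to 22.1 and 23.2 with LPS, against 33.2 and 37.9 in control medium, dendritic cell markers to 156 and 161 with LPS, against 210 and 227 in control medium, and mast cell markers to 0.57 and 0.34 with LPS, against 0.75 and 0.58 in control medium. T cell markers summed to 14.6 and 14.2 with LPS, against 14.1 and 14.4 in control medium, and Cd3d, Cd3g and Cd8a were too dim to be tested. The dendritic cell sum was almost wholly that of Siglech, read by a repeat probe (7.27 and 7.31 with LPS, against 7.71 and 7.83 in control medium), and 2 of 6 of that list rose and 2 fell. The endothelial sum was mostly that of Kdr, which was not called (-0.07), and of Vwf, which fell (-2.29 ± 0.09). The part of such cells in any result was not tested.

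Of 3907 long intergenic RNAs tested, 1002 (25.6%) rose and 680 (17.4%) fell, beside 29.0% and 25.5% of all genes. These probes carry the names of genome segments in build mm9. Among the largest rises were RNAs at chr4:10407110-10724958, at least 192-fold higher, and at chr17:64063362-64066067, at least 179-fold higher, and among the largest falls those at chr8:85609155-85615170 (-4.81 ± 0.39) and chr6:99472981-99484210 (-4.66 ± 0.21). On chromosome 16, between bases 84705907 and 84708797, 13 probes lay on both strands, of which 12 rose, none fell, and the change ranged from -0.40 to 8.59. The first 2 probes overlap by 28 bases, given in capitals, on opposite strands. Mrpl39 is the next gene of the array, and no match to a named RNA was made.
Reverse-strand probe (chr16:84705907-84705966, change 8.59): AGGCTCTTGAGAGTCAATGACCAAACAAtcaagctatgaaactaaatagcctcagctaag
Forward-strand probe (chr16:84705939-84705998, change 4.02): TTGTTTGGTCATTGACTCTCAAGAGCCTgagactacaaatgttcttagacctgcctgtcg
Probes of both strands of this locus gave signal with LPS, and whether separate RNAs are made from them was not tested.

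**Figure D4:**
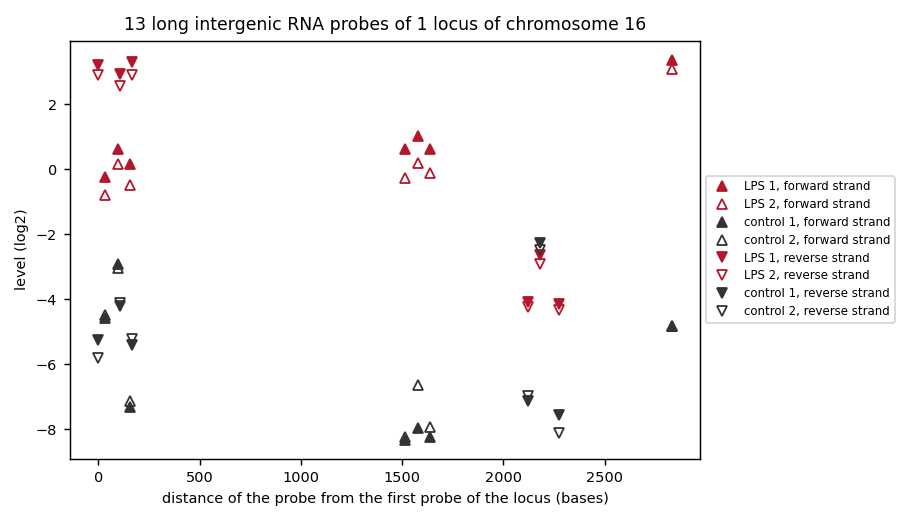
Level of the 13 long intergenic RNA probes of the chromosome 16 locus (y axis, log2 relative to the 75th percentile of the array) against distance in bases from the first probe of the locus (x axis). LPS arrays are red and control arrays black, filled for replicate 1 and open for replicate 2, with forward-strand probes as upward and reverse-strand probes as downward triangles, and 12 of the 13 probes lie higher with LPS.

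Probes of a gene did not always move together. Of 4759 genes with 2 or more probes, 279 (5.86%) had probes called in opposite directions, and in 33 both were at least 2-fold. St6gal1 was 1.75 by one probe and -5.82 by another, Itgb3 3.23 and -4.18, F10 5.01 and -1.36, and Tns1 2.32, -3.65 and -4.04.

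Probes that hold a GT, AC or AAG repeat of at least 16 bases each moved mostly 1 way. Of 75 probes with a GT repeat, 74 rose and none fell (median 1.84), whereas of 35 with an AC repeat 1 rose and 33 fell (median -3.27) and of 45 with an AAG repeat all fell (median -1.08). Probes with a GTTT repeat did not share a direction, with 10 of 20 higher and 4 lower (median 0.27), and over all 286 probes with a simple repeat 39.9% rose and 43.4% fell. Among all 39417 probes kept, 26.7% rose and 23.7% fell. Median levels on each array were 8.59 and 8.97 with LPS, against 7.04 and 7.08 in control medium, for GT repeats, and -0.93 and -1.07 with LPS, against 2.02 and 2.09 in control medium, for AC repeats. Shown are 30 bases of the repeat probes of 4 genes of the lists, with the repeat in capitals, because their direction can differ from that of another probe of the gene.
Trim25, GT repeat: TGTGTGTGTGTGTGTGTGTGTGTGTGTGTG
Cat, AC repeat: cacatacCACACACACACACACAtgcaata
Itgam, AC repeat: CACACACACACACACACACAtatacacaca
F10, AAAG and AAGG repeats: GAAAGAAAGAAAGAAAGAAAGAAAGAAAGA
By their other probe, Trim25 was at 0.13 (not called), Cat at -1.78, Itgam at 2.05 and F10 at 5.01, against 1.93, -2.37, 0.30 and -1.36 by the repeat probe. No cause of these shifts was tested.

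**Figure D5:**
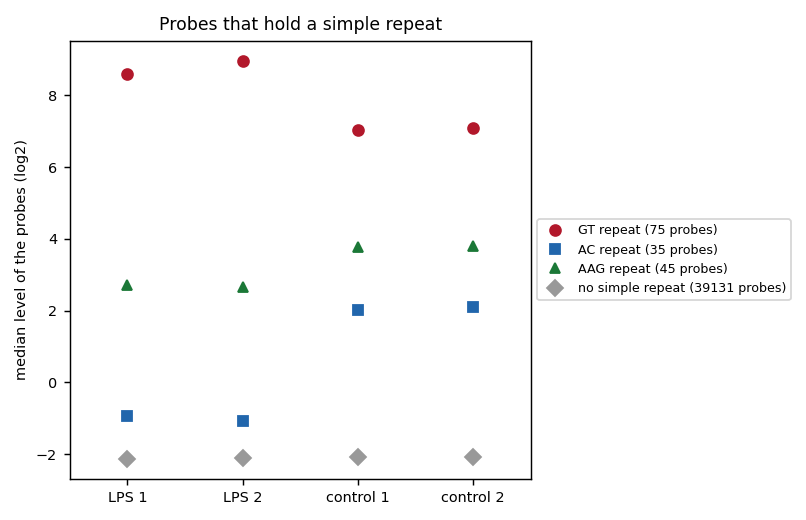
Median level (y axis, log2 relative to the 75th percentile of the array) of probes that hold a GT, AC or AAG repeat and of probes with no simple repeat, on the 2 LPS arrays and then the 2 control arrays. GT repeat probes lie higher with LPS, AC and AAG repeat probes lower, and the 39131 probes without a repeat stay near -2.1 on all 4 arrays.

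Several genes that fell with LPS were lower with LPS than with IL-4. Irf4 differed by -8.41 ± 0.16 (LPS minus IL-4, adjusted p = 1.5e-06 in limma), Egr2 by -7.54 ± 0.10, Mrc1 by -6.40 ± 0.10, Clec7a by -6.40 ± 0.08 and Pparg by -5.94 ± 0.11. Levels of Mrc1 were -0.37 and -0.12 with LPS and 6.13 and 6.17 with IL-4, against 5.27 and 5.35 in control medium. Both comparisons use the same LPS arrays.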

How the data were processed

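RNA of 8 samples was read on 1-colour (Cy3) arrays, and the spot intensity values deposited by the authors came from Agilent Feature Extraction 10.7.3.1, per the file headers, which had already subtracted background within each array. Flags of 0 or 1 per spot for uneven, outlying, saturated and well-above-background spots were taken from the same deposited files. The deposited value table holds log2 values of 34119 of 55681 probes, per the file headers, and the authors' subtracted constant is unknown. Partek 6.4 and RMA are named, without a role, per the submitters' processing notes.

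Log2 intensity minus the 75th percentile of non-control spots on each array was fitted with lmFit and eBayes of limma 3.58.1 in R 4.3.3, over all 8 arrays with 4 group means, and p-values were adjusted by Benjamini-Hochberg over 26508 genes. A gene was represented by its brightest of 39417 kept probes, and the fit was tested on simulated data. A bound sets the mean of the brighter group against, on each array of the dimmer group, the higher of the lowest signal well above background and the probe's own. The members and the gene lists were chosen with earlier results of these data known. The genes named were the 12 highest and 12 lowest changes, members of each list from among its 6 largest rises and 6 largest falls, the parts of the LPS receptor route, the probes that disagree most and the largest long intergenic RNA changes, and further members were named for their role after their values were seen. Probe positions are those of build mm9 in the files. Alternatives were normexp background correction, quantile normalization, median centring, the deposited table, 4 arrays only, an intensity trend, no filter or a stricter filter, marked spots kept, another choice of probe, the replicate number as a block, and each array left out. Precision is limited by the 2 arrays of each group. Some members of the lists are counted but not reported here by name.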

Additional observations from a re-analysis of the deposited data

How the results depend on the processing

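The number of genes called was 11719 of 23866 in the deposited value table, 12345 after median centring, 13394 of 34787 with no filter, 11110 with only the 4 LPS and control arrays and 14436 after normexp correction, against 14433 in the main fit. The count of genes higher with LPS was 4897 after median centring and 4508 in the deposited table, which also holds fewer probes, against 7685. After normexp correction, 1963 genes were at least 2-fold higher and 1749 at least 2-fold lower, against 3210 and 2684. List medians near 0 moved with scaling: after median centring the median was 0.29 for LPS recognition, -0.41 for lineage factors, 0.09 for the citric acid cycle, 0.19 for the respiratory chain and -0.51 for class II and costimulation, and after normexp it was 1.87 for acute-phase genes. With each array left out in turn, genes called ranged from 12568 to 14415, genes higher from 6440 to 8321, genes lower from 5779 to 6512, genes at least 2-fold higher from 2923 to 4230 and at least 2-fold lower from 2553 to 3011. Genes well above background with LPS only ranged from 995 to 3165, against 820, and in control medium only from 386 to 602, against 309, since leaving out an array loosens both criteria. Of 274 genes named as called, all but F10 and Siglech kept their direction under every alternative in which they had a value. Not every alternative covered every gene. The fit on genes well above background on all 4 arrays held 246 of them, and Adora2a and Trem1 had no value without repeat probes. Over all alternatives 89 of their values lost the call, among them small changes such as those of H2-Ab1, Ppbp, Rela, Slfn5, H2-D1, Pf4, B2m and Abca1. Differences between replicate 2 and replicate 1 in the LPS group and in the control group correlated at -0.0932 across genes. Array noise can hide a shared origin, so this value cannot show whether same-numbered samples share an animal or culture. The fit with the replicate number as a block called 13668 genes, 7288 higher and 6380 lower. Leaving out probes with a simple repeat, an alternative chosen after seeing the data, gave 14232 genes of 26332, and F10, at -1.36 by its repeat probe, was then at 5.01 by its other probe, and Siglech, at -0.48, at 0.33. No cause of the differences between scalings was tested. Dim probes limit what can be read, since only bounds can be given where a group is not well above background.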
